A study of Mus musculus with 8 samples.

Results

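The proteasome is the protease of the cytosol and nucleus that degrades proteins tagged with ubiquitin. Its barrel, the core particle, is built of rings of alpha and beta subunits, and 3 of the beta subunits (Psmb5, Psmb6 and Psmb7) carry the catalytic sites. The regulatory particle caps the barrel, with a ring of ATPases (Psmc genes) that unfolds substrates and non-ATPase subunits (Psmd genes) that bind ubiquitin, remove it or hold the particle together. In immune cells, microglia among them, interferons induce alternative catalytic subunits (Psmb8, Psmb9 and Psmb10) that replace the constitutive ones in the immunoproteasome. The transcripts of the constitutive subunits were followed here in microglia, which are macrophages that live in the brain and spinal cord, after peripheral nerve injury. All gene symbols that begin with Psma, Psmb, Psmc or Psmd followed by a number were taken, except the immunoproteasome genes and the thymus form Psmb11. This gave 35 of the 27998 genes in the files: 15 core genes (8 alpha, 7 beta) and 20 regulatory genes (6 ATPases, 14 Psmd genes).

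The name "constitutive subunits" held for most but not all of these genes. Psma8 is a form of alpha subunit known from the testis, and it was close to absent, at 2.75 to 11.7 CPM (the unique molecular identifiers, UMIs, of a gene in a library, scaled so that all genes of that library sum to 1000000). Psmd5, Psmd9 and Psmd10 are assembly chaperones of the ATPase ring and are not part of the finished proteasome. They are counted with the regulatory particle, as the naming rule has it, and are also shown on their own. The other 31 genes encode subunits.

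The libraries were 8 droplet-based 3′ single-cell libraries of YFP+ cells sorted from the lumbar cord of young adult C57BL/6 mice. Of the groups, 4 were control, Cx3cr1-yfp-creER/+, and 4 were A20 cKO, which carried the same Cx3cr1-yfp-creER allele with Tnfaip3 fl/fl, so that every group had 1 Cx3cr1 allele replaced. Each genotype had a naive group and groups taken at days 1, 2 and 3 following bilateral sciatic nerve transection. Experiments were done after tamoxifen injection for recombination, per the study's methods, and Cre was driven from the Cx3cr1 locus, which monocytes and other macrophages also use. Cords of 3 animals were pooled per group, so that each group had 1 library and no replicate: libraries were compared by size and counting error, never tested against each other, and differences between animals cannot be seen.

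Of 14883 barcodes, 14626 were kept, between 558 and 3585 a library, with a median of 2780 to 4274 UMIs per cell. The monocyte, perivascular macrophage, astrocyte, neuron, endothelium and erythrocyte lists each summed to at most 8.66 CPM in any library. All 7 microglia markers were found in every library, at a summed 11339 to 23570 CPM, and the T cell marker present in the files was at 0 in all 8. The libraries fell into 2 sets in ways that the groups do not explain. Control day 3 and all 4 A20 cKO libraries (here the linked libraries) shared 256 cell barcodes in their 10 pairs, 13.2 per 1000000 possible barcode pairs, against 125 in the other 18 pairs of libraries, 1.75 per 1000000. The linked libraries also held transcripts of other cells. The 3 oligodendrocyte markers summed to 98.0 to 153 CPM there against 21.8 to 33.3 CPM in the other 3 libraries, the 2 neutrophil markers to 18.5 to 32.0 CPM against 0, and the choroid plexus marker Ttr to 126 to 397 CPM against 0. Control naive, day 1 and day 2 stood on one side of this split, and the A20 cKO series and A20 cKO day 3 against control day 3 on the other. Control day 3 against control naive and A20 cKO naive against control naive crossed it, so that in those 2 comparisons the condition and the library set cannot be told apart.

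Proteasome promoters are short and rich in elements for general factors, and members of the family are known to be induced together by the factors Nfe2l1 and Nfe2l2. The promoters of 4 members named in the comparisons below are shown as the places where their transcripts begin. Psmd2 had the highest ratio to naive controls on day 1 and Psmb3 on day 2. The others are the catalytic gene Psmb6 and Psmd10, which went the other way. All 4 were chosen after the values were seen. Each is the 250 bases before the RefSeq start site on the build GRCm38.p6, written 5′ to 3′ on the strand of the gene, at chr16:20651402-20651651 (plus strand, Psmd2), chr11:97703184-97703433 (plus, Psmb3), chr11:70525107-70525356 (plus, Psmb6) and chrX:140956712-140956961 (minus, Psmd10). Capitals mark the motifs CCAAT, the site of the factor NF-Y, and TGACNNNGC, the core of the antioxidant response element, on either strand, so that CCAAT read on the other strand appears as ATTGG.
Psmd2: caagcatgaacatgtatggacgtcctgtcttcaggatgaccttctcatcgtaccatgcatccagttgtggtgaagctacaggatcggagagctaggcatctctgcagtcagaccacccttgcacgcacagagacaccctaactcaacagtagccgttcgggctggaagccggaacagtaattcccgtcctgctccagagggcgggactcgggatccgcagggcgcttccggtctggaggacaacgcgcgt
Psmb3: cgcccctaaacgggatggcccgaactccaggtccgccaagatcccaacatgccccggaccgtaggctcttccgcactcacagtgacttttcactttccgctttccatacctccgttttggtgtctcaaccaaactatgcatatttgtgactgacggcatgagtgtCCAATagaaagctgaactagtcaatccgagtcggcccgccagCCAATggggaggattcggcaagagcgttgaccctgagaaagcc
Psmb6: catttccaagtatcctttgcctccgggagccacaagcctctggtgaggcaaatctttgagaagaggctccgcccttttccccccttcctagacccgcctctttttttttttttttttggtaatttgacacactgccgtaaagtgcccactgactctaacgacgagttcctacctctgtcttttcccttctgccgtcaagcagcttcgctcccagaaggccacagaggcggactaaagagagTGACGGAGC
Psmd10: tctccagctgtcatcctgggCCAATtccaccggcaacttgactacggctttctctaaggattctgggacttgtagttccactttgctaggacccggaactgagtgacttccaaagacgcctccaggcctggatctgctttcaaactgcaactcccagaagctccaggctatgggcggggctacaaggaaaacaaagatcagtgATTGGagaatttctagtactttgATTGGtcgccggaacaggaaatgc

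Promoters of 28 of the 35 members were matched by symbol. Over 300 bases, from 250 before to 50 after the start, CCAAT on either strand was found in 11 of the 28 (39.3%) and in 37.9% of 27025 promoters of all genes. TGACNNNGC was found in 5 of 28 (17.9%) against 12.5% of all, and TGACTCA, the site of AP-1 factors such as Fos and Jun, in 1 (3.57%) against 5.17%. TGACTCA and TGACNNNGC share their first 4 letters and can overlap. CCAAT was present in 6 of 11 core promoters and in 4 of 14 promoters of regulatory subunits. The shares are descriptions of these windows, and the starts were not chosen alike. For members the start nearest the annotated gene start was taken, and for all genes the first listed. For Psmd5 (4006 bases) and Psmd9 (58777 bases) the RefSeq start lay far from the gene start in the annotation used for coordinates. Psmd9 held the 1 TGACTCA and 1 of the 5 TGACNNNGC promoters. Psmd2, the member that differed most on day 1, held none of the 3 motifs in the printed bases, while Psmd10 held CCAAT 3 times.

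The 35 members together took between 0.345% and 0.483% of all UMIs of a library. Their sum in naive controls was 3451 CPM (95% interval 3362 to 3543, exact Poisson), followed by 4470 (4435 to 4505), 4835 (4800 to 4869) and 3854 CPM (3809 to 3899) at days 1, 2 and 3. The sum in naive A20 cKO was 3633 CPM (3593 to 3672), followed by 3965 (3895 to 4037), 4128 (4056 to 4201) and 3783 CPM (3708 to 3859). These and all later intervals cover counting error only. From low to high the order was control naive, A20 cKO naive, A20 cKO day 3, control day 3, A20 cKO day 1, A20 cKO day 2, control day 1 and control day 2. The intervals of neighbours overlapped for A20 cKO day 3 and control day 3 and for control day 3 and A20 cKO day 1, and for no other neighbours. In cells thinned to 2000 UMIs, the median cell held 9 UMIs of 8 members in control day 1 and day 2 and 7 UMIs of 6 members in each of the other 6 libraries. These medians follow from the sums, since thinning keeps the share of UMIs that the members take in a cell.

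**Figure D1:**
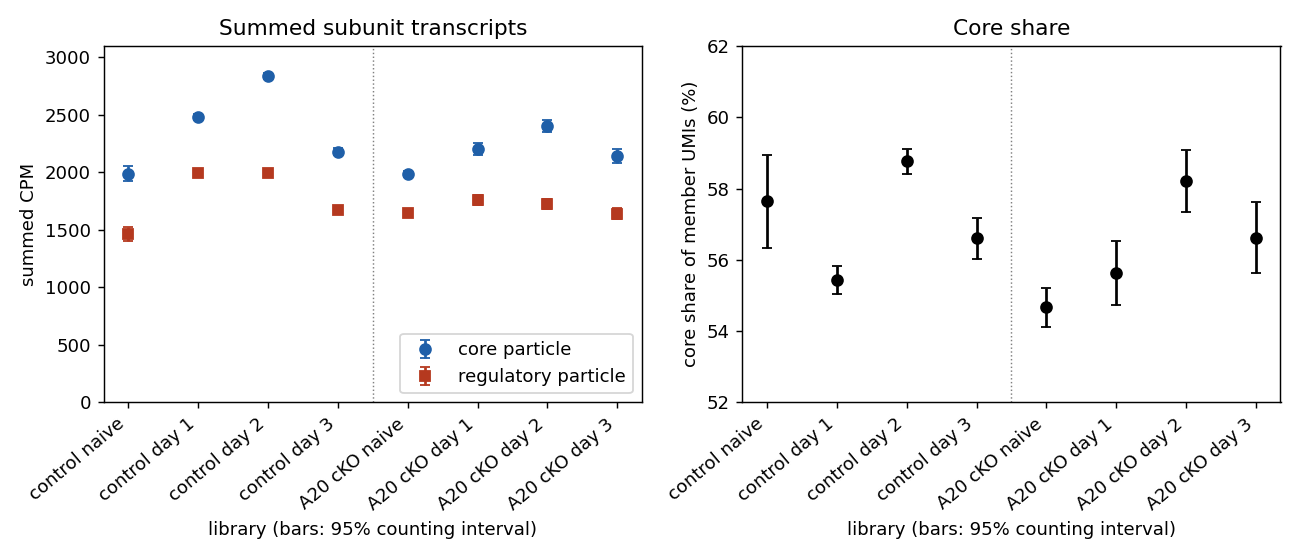
Left, summed CPM of the 15 core and 20 regulatory genes in each of the 8 libraries. Right, the core share of all member UMIs in percent, on an axis that runs from 52% to 62%. Bars are 95% counting intervals and the dotted line divides control from A20 cKO. Both particles were highest in control day 1 and day 2, and the core share was highest in control day 2 (58.8%) and A20 cKO day 2 (58.2%).

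The core particle took the larger part of the transcripts everywhere. Its share of member UMIs was 57.6% in naive controls, then 55.4%, 58.8% and 56.6% at days 1, 2 and 3, and correspondingly 54.7%, 55.6%, 58.2% and 56.6% in A20 cKO. The exact binomial 95% intervals ran from 55.0% to 55.8% in control day 1 and from 58.4% to 59.1% in control day 2, so that these 2 libraries, the highest in total level, stood at opposite ends in balance apart from A20 cKO naive. In both genotypes the core share was higher on day 2 than on day 1 and on day 3. With 1 library per point, that pattern has no replicate check.

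Apart from Psma8, members differed more in level from each other than any of them differed between libraries. CPM was not divided by transcript length, since 3′ counting aims at 1 tag per molecule. Differences between genes in capture or annotation were not measured, so rankings of genes are rankings of counted UMIs. The highest members by mean CPM over the 8 libraries were the alpha subunits Psma7 (mean 245 CPM), Psma3 (242 CPM) and Psma1 (237 CPM), all part of the outer rings of the barrel. Values of single genes are given for naive first and then for days 1, 2 and 3 in order. Psma7 was at 216, 245, 292 and 250.2 CPM in control and at 213, 250.3, 280.5 and 216 CPM in A20 cKO. Psma3 was at 231, 268, 293 and 209 CPM in control and at 234, 249, 247 and 204 CPM in A20 cKO, and Psma1 at 214, 232, 304 and 227 CPM in control and at 209.6, 237, 246 and 228 CPM in A20 cKO. All 3 were highest in control day 2. The lowest members were Psma8 (mean 5.18 CPM) and the chaperones Psmd5 (31.9 CPM) and Psmd10 (36.5 CPM). The alpha genes without Psma8 lay between 107 and 245 CPM on average, the beta genes between 80.2 CPM (Psmb4) and 206 CPM (Psmb6), the ATPases between 59.3 CPM (Psmc1) and 149 CPM (Psmc3) and the Psmd subunits between 48.6 CPM (Psmd3) and 134 CPM (Psmd4).

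**Figure D2:**
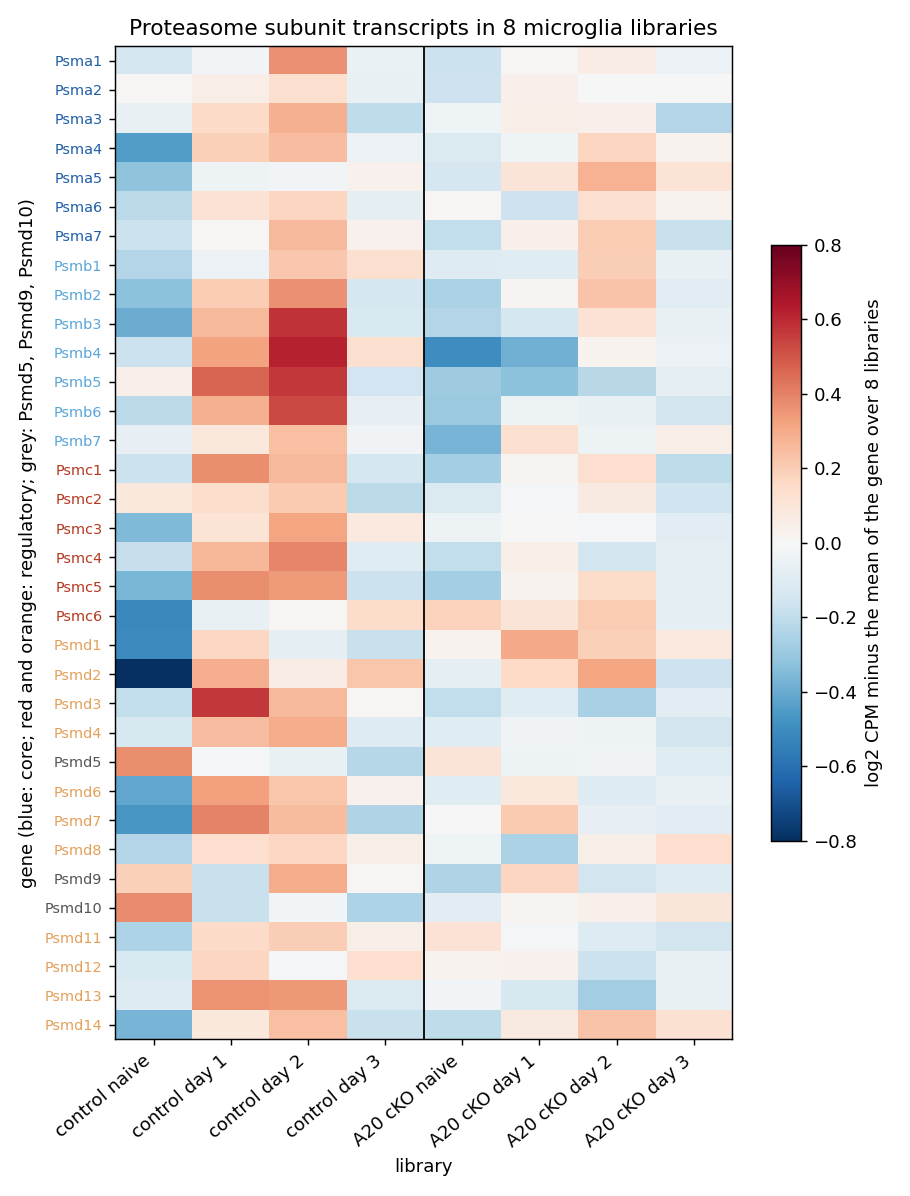
Level of 34 members (rows, Psma8 left out for its low counts) in the 8 libraries (columns), as log2 CPM minus the mean of that gene over the libraries, so that red is above and blue below the gene's own mean. Colours of names mark alpha and beta subunits (blues), ATPases (red), other Psmd genes (orange) and the chaperones Psmd5, Psmd9 and Psmd10 (grey). Most rows are reddest in control day 1 or day 2 and bluest in a naive library, while Psmd5 and Psmd10 are reddest in control naive.

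Of the 35 members, 21 were highest in control day 2 and 7 in control day 1. Control naive was the lowest library for 15 members and A20 cKO naive for 9. The same counts were not made over all genes, so they describe the members only. Control naive was also the library with the fewest UMIs, where counting error is largest. Psma8, Psmd5 and Psmd10 were the 3 members that were highest in control naive.

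The 3 constitutive catalytic genes were each highest in control day 2. Psmb5, the chymotrypsin-like subunit, was at 119, 160.5, 171 and 104 CPM in control and at 95.4, 92.1, 99.2 and 109.8 CPM in A20 cKO. Its values in control day 1 and day 2 lay above those of all other libraries. Psmb6, the caspase-like subunit, was at 175, 246, 292 and 194 CPM in control and at 165, 196, 194 and 183 CPM in A20 cKO. Psmb7, the trypsin-like subunit, was at 88.2, 98.4, 109.6 and 90.8 CPM in control and at 71.5, 101, 90.0 and 96.0 CPM in A20 cKO, the smallest range of the 3 on the log2 scale (0.62).

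The widest ranges over libraries among core members with a mean of at least 50 CPM belonged to beta genes. Psmb4, a structural beta subunit, was at 69.1, 97.7, 119 and 85.2 CPM in control and at 55.3, 59.8, 79.4 and 75.5 CPM in A20 cKO, a log2 range of 1.11. Psmb3, also structural, was at 122, 192, 239 and 148 CPM in control and at 136, 145, 174 and 153 CPM in A20 cKO (0.97). Psmb5 followed with 0.89. Among regulatory members, Psmd2, a large scaffold subunit, was at 39.5, 84.9, 72.3 and 81.0 CPM in control and at 65.9, 77.3, 86.4 and 61.8 CPM in A20 cKO (1.12). Control naive was the one library in which Psmd2 was low, with an interval of 30.4 to 50.4 CPM that overlapped that of no other library. Psmd7, a partner of the deubiquitinase in the lid, was at 90.1, 164, 148 and 106 CPM in control and at 125, 144, 119 and 117 CPM in A20 cKO (0.86). Psmd1, the other large scaffold subunit, was at 45.7, 73.3, 61.8 and 57.6 CPM in control and at 66.5, 80.6, 74.5 and 68.9 CPM in A20 cKO (0.81). Psmd1 shares its strand with the overlapping gene Gm21972, and Psma2 with AW209491, so that their counts may be split between annotations.

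One day after injury, transcripts of the proteasome were higher in control microglia than in naive controls, and the regulatory particle more so than the core. Relative to the median gene, the sum of all members was higher by 0.50 on the log2 scale (0.46 to 0.54), the core by 0.44 (0.39 to 0.50) and the regulatory particle by 0.57 (0.51 to 0.64). The difference of core minus regulatory, which does not depend on scaling, was -0.13 (-0.21 to -0.05). By ring, the sum was higher by 0.34 for alpha genes, 0.56 for beta genes, 0.58 for ATPases and 0.69 for the 11 Psmd subunits. The chaperones together were lower by a relative log2 ratio of -0.30 (-0.49 to -0.09).

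Of the 34 members with at least 100 UMIs in the 2 libraries together, 31 lay above the median gene. Of these members 14 were past 1.5-fold higher and 0 past 1.5-fold lower, against a background of 14.2% of 8866 genes past 1.5-fold higher and 15.3% past 1.5-fold lower. At a mean of at least 50 CPM, 14 members were past it, against 13.9% of genes higher and 9.13% lower (23.1% in all). Psmd2 (1.22, 0.87 to 1.62) and Psmd7 (0.99, 0.75 to 1.24) had the highest relative log2 ratios, followed by Psmd3 (0.89), Psmd6 (0.87) and the ATPase Psmc5 (0.87). Psmb3 (0.78) and Psma4 (0.76) led the core. Psmd10 (-0.43, -0.78 to -0.05) and Psmd5 (-0.26, -0.62 to 0.15) were the lowest, and Psmd9 was at -0.24. The 3 members under the median gene were thus the 3 chaperones.

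Other genes of the pathway went partly with the subunits. Of the 5 assembly genes in the files all 5 were above the median gene and 0 past 1.5-fold, with Psmg2 at 0.56 and Pomp, which completes the core particle, at 0.44. Psme3, the nuclear activator of the core, was at 29.0 CPM in naive and 59.5 CPM on day 1 (1.15), and Adrm1, a ubiquitin receptor of the regulatory particle, at 80.2 and 123 CPM (0.74). Of the 11 shuttle and partner genes 7 lay above the median gene and 0 past 1.5-fold, with the ATPase Vcp highest at 0.55. Of the 4 genes for proteasome transcription 0 were past 1.5-fold, and the transcription factor Nfe2l1 was at -0.26.

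Several other measures moved with this comparison. Genes known to respond to cell dissociation and heat shock were all 6 past 1.5-fold higher of the 6 with enough UMIs, with Fos at 20.4 CPM in control naive and 4105 CPM in control day 1 and Hspa8, a general chaperone, at 565 and 2101 CPM. Median depth was 2780 UMIs per cell in control naive and 4080 in control day 1. Cells of the S or G2/M class were here those with UMIs of 3 or more of 12 S genes or of 18 G2/M genes. They were called on all UMIs, which deeper cells pass more easily. Without these cells the level was 0.48 and 14 members were past 1.5-fold higher, against 13.5% of genes. In cells of 3000 to 6000 UMIs, a range added after the data were seen, the level was 0.39, 8 members were past 1.5-fold higher and 1 lower, against a background of 14.02% of genes higher. The part of the dissociation genes in the result was not tested. The median gene itself was at -0.13 by library totals, and the level by totals alone was 0.37.

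**Figure D3:**
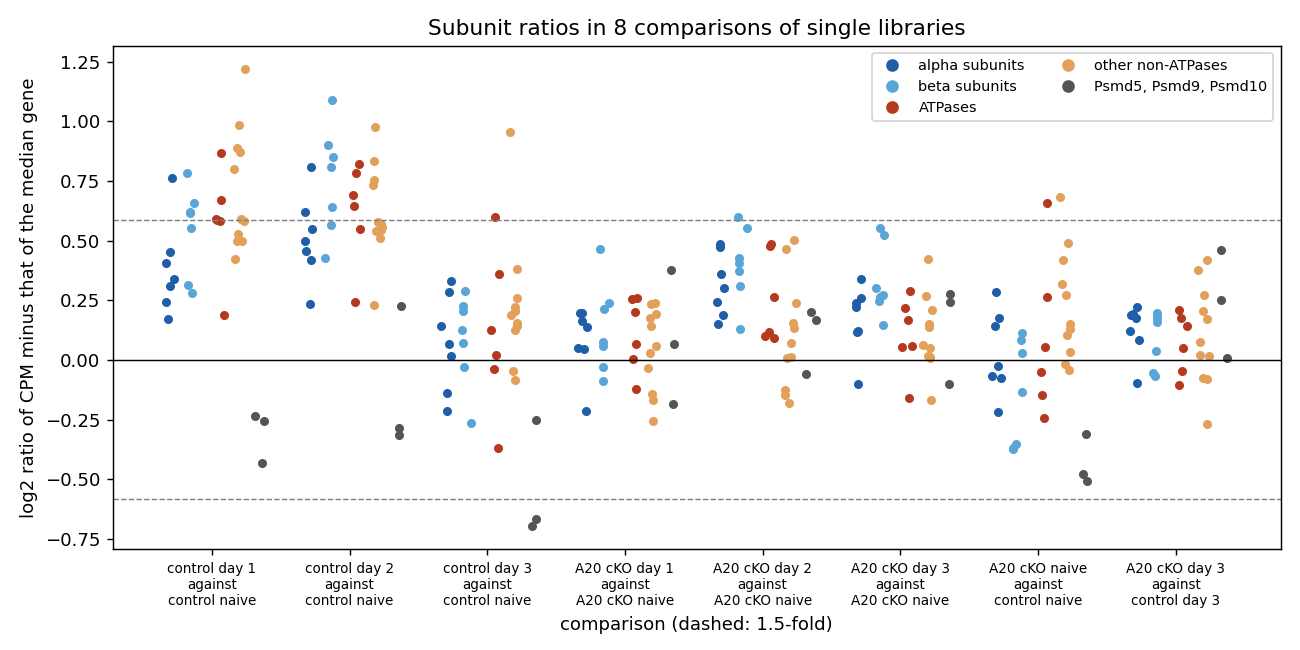
Log2 ratio of CPM of each member with at least 100 UMIs, minus that of the median gene, in 8 comparisons of single libraries. Each point is a gene, coloured by its place in the proteasome, and dashed lines mark 1.5-fold. Points stand mostly above 0 in control day 1 and day 2 against naive, and the grey chaperones sit at or below the lower edge there.

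On day 2 the level against control naive was higher still, and the core had caught up. The sum of all members was higher by 0.60 (0.56 to 0.64), the core by 0.63 (0.58 to 0.68) and the regulatory particle by 0.56 (0.50 to 0.63), so that core minus regulatory was 0.07 (-0.01 to 0.15). Beta genes were higher by 0.77, ATPases by 0.64, the 11 Psmd subunits by 0.61 and alpha genes by 0.51, while the chaperones were at -0.06 (-0.25 to 0.14). Of 34 members 32 lay above the median gene, and 15 were past 1.5-fold higher and 0 lower, against 16.4% of 9279 genes past 1.5-fold higher and 14.3% past 1.5-fold lower. At 50 CPM or more on average, 16.2% of genes were past it higher and 8.57% lower (24.8% in all), and 15 members. Psmb3 (1.09, 0.88 to 1.31) and Psmd2 (0.98, 0.62 to 1.38) had the highest ratios, and Psmd5 (-0.31, -0.68 to 0.09) and Psmd10 (-0.29, -0.63 to 0.09) the lowest. Psmb4 was at 0.90, Psmb6 at 0.85, Psmd7 at 0.83 and Psmc5 at 0.82.

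Among other pathway genes on day 2, Pomp was at 312 CPM in naive and 504 CPM on day 2 (0.81), and Psme3 (0.93), Adrm1 (0.74) and the deubiquitinase Uchl5 (0.68) were also past 1.5-fold. All 5 assembly genes lay above the median gene. Of the 4 proteasome transcription genes 0 lay above it, and Ddi2, the protease that activates Nfe2l1, was at -0.62, which was past 1.5-fold lower. Of the dissociation and heat shock genes, all 5 with enough UMIs were past 1.5-fold higher on day 2 (median 1.12), with Fos at 186 CPM, and their part in the result was not tested. Control day 1 and day 2 share the naive control library, so that the 2 comparisons are not independent.

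Of kept cells, 43.2% were in the S or G2/M class on day 2 and 0.88% in control naive. Without these cells the level was 0.49 and 12 members were past 1.5-fold higher, against 11.4% of genes. In cells of 3000 to 6000 UMIs it was 0.44, with 7 members past 1.5-fold higher against 14.6% of genes. By library totals alone the level was 0.49, with the median gene at -0.12.

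On day 3 control microglia were close to naive controls in the total and differed in single members. The sum was higher by 0.09 (0.05 to 0.13), the core by 0.06 and the regulatory particle by 0.12, and core minus regulatory was -0.06 (-0.15 to 0.02). Of 34 members 2 were past 1.5-fold higher and 2 past 1.5-fold lower, against 17.7% and 12.9% of 8302 genes, so that the members' share lay under the background. With a mean of at least 50 CPM, 2 members were past it, against 14.3% of genes higher and 10.5% lower. Psmd2 (0.96, 0.59 to 1.36) and Psmc6 (0.60, 0.29 to 0.93) were the highest, and Psmd10 (-0.70, -1.07 to -0.30) and Psmd5 (-0.67, -1.07 to -0.24) the lowest. Of the activators, Psme4 was at 17.3 CPM in naive and 37.5 CPM on day 3 (1.02). This comparison crossed the split between library sets. Of the 5 dissociation and heat shock genes with enough UMIs, 3 were past 1.5-fold higher and 0 lower (median 0.84). Fos was at 20.4 CPM in control naive and 301 CPM in control day 3. The part of these genes in the result was not tested. In cells of 3000 to 6000 UMIs the level was 0.03, and without S or G2/M class cells called on all UMIs also 0.03.

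In A20 cKO microglia the sum 1 day after injury was higher than in A20 cKO naive by 0.09 (0.06 to 0.12), the core by 0.11 and the regulatory particle by 0.06, with core minus regulatory at 0.06 (-0.005 to 0.12). Of 34 members 25 lay above the median gene and 0 were past 1.5-fold in either direction, against 6.01% of 8919 genes higher and 6.11% lower, or 3.98% and 4.07% (8.05% in all) at 50 CPM or more on average. Psmb7 (0.47, 0.26 to 0.66) and Psmd9 (0.38, 0.11 to 0.64) were the highest, and Psmd8 (-0.25, -0.45 to -0.07) and Psma6 (-0.21, -0.41 to -0.03) the lowest. Fos was at 508 CPM in A20 cKO naive and 13.2 CPM on day 1, and of the 5 dissociation and heat shock genes with enough UMIs 0 were past 1.5-fold higher and 2 lower.

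On day 2 the A20 cKO sum was higher than naive by 0.26 (0.23 to 0.29), with the core at 0.35 (0.31 to 0.39) and the regulatory particle at 0.14 (0.09 to 0.19). Core minus regulatory was 0.21 (0.15 to 0.27), the largest of the 8 comparisons. Of 34 members 30 lay above the median gene, and 1, Psmb4, was past 1.5-fold higher and 0 lower, against 9.19% and 8.06% of 8921 genes, or 9.1% and 5.53% at a mean of at least 50 CPM. Psmb4 was at 0.60 (0.37 to 0.82) and Psmb2, a structural beta subunit, at 0.55 (0.42 to 0.69), and Psmd13 (-0.18, -0.46 to 0.08) and Psmd11 (-0.15, -0.32 to 0.03) were the lowest. All 14 core members tested lay above the median gene. In cells of 3000 to 6000 UMIs the level was 0.04, core minus regulatory was 0.10 and 0 members were past 1.5-fold, against 3.48% of genes past it higher. Several measures differed between A20 cKO naive and day 2. Median depth was 2824 and 4128 UMIs per cell, and Fos was at 508 and 21.1 CPM. The S or G2/M class called on all UMIs held 6.88% and 24.7% of kept cells. Cells with an interferon response (defined below) made up 22.7% and 51.9% of thinned cells. The part of each in the result was not tested.

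On day 3 the A20 cKO sum was higher than naive by 0.16 (0.12 to 0.19), with core minus regulatory at 0.11 (0.05 to 0.18). Of 34 members 0 were past 1.5-fold, against 7.55% of 8797 genes higher and 6.24% lower, or 7.47% and 3.72% at a mean of at least 50 CPM. Psmb4 (0.55) and Psmb7 (0.52) were the highest, and Psmd11 (-0.17) and Psmc6 (-0.16) the lowest. Median depth on day 3 was 4274 UMIs. In cells of 3000 to 6000 UMIs the level was -0.01 and core minus regulatory 0.02, and by library totals alone the level was 0.06. The immunoproteasome genes were higher than in A20 cKO naive by 0.59 (Psmb8), 0.62 (Psmb9) and 0.40 (Psmb10), and the interferon-induced activator subunit Psme1 by 0.61.

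Side by side, 30 of 34 members had a higher ratio to their own naive library in control than in A20 cKO on day 1, and 29 and 11 members at the 2 later times. The 2 series have separate naive libraries, and the control values of day 1 and day 2 came from one library set and all A20 cKO values from the other. The same count was not made over all genes, and members of a library are not replicates of it. The difference between the genotypes in their response was not tested.

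Between naive libraries, A20 cKO differed from control in the balance of the particles rather than in the total. The sum was at 0.03 (-0.01 to 0.07), the core at -0.05 (-0.10 to 0.01) and the regulatory particle at 0.13 (0.06 to 0.19), and core minus regulatory was -0.17 (-0.26 to -0.09). Of 34 members 2 were past 1.5-fold higher and 0 lower, against 17.1% and 10.6% of 8641 genes, or 14% and 8.84% (22.8% in all) at a mean of at least 50 CPM. The members past it were Psmd2 (0.68, 0.32 to 1.09) and Psmc6 (0.66, 0.35 to 0.99), the 2 that also led control day 3 against control naive, with which this comparison shares the naive control library. Psmd10 (-0.51, -0.87 to -0.12) and Psmd9 (-0.48, -0.80 to -0.13) were the lowest. Nfe2l2, a stress-responsive transcription factor of proteasome and antioxidant genes, was at 187 CPM in control naive and 317 CPM in A20 cKO naive (0.71). This comparison also crossed the split between library sets, and Fos was at 20.4 and 508 CPM.

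Control day 3 and A20 cKO day 3 belonged to the same library set, and their subunit transcripts were close. The sum was at 0.09 (0.06 to 0.12) relative to the median gene and -0.03 by library totals alone, the median gene being at -0.12. Core minus regulatory was 0.001 (-0.07 to 0.07). Of 34 members 0 were past 1.5-fold, against 6.97% of 8488 genes higher and 6.61% lower, or 7.18% and 3.58% at a mean of at least 50 CPM. In cells of 3000 to 6000 UMIs the level was -0.01. There 1 member was past 1.5-fold lower and 0 higher, against 7.27% of genes past it higher. Psmd10 (0.46, 0.10 to 0.81) and Psmd14, the deubiquitinase of the lid (0.42, 0.16 to 0.67), were the highest, and Psmd2 (-0.27, -0.54 to -0.02) and Psmc6 (-0.11, -0.34 to 0.12) the lowest. Against this, Psmb9 was higher by 0.84 and Psmb8 by 0.56, and Nfe2l2 was at 195 CPM in control and 370 CPM in A20 cKO (1.04).

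Each constitutive catalytic subunit was set beside the immunoproteasome subunit that takes its place. Psmb9 made up 35.01% of the UMIs of the pair Psmb6 and Psmb9 in naive controls, then 17.5%, 18.8% and 36.9% at days 1, 2 and 3. Its share in A20 cKO was 44.0%, followed by 38.3%, 46.6% and 50.5% at the same times. The intervals of control day 1 (16.3% to 18.7%) and day 2 (17.8% to 19.8%) lay under those of the other 6 libraries, since Psmb6 was higher there and Psmb9 lower (52.2 and 67.5 CPM against 94.4 CPM in control naive). Psmb8 took 67.4%, 58.6%, 62.5% and 75.9% of its pair with Psmb5 in control and 77.0%, 79.3%, 83.1% and 80.3% in A20 cKO. Psmb10 took 63.5%, 57.1%, 57.7% and 58.7% of its pair with Psmb7 in control and 61.0%, 51.5%, 55.9% and 59.0% in A20 cKO. Psmb8 was over 50% of the UMIs of its pair in all 8 libraries. So was Psmb10, although its interval in A20 cKO day 1 (47.5% to 55.5%) held 50%. Psmb9 was over 50% only in A20 cKO day 3, where its interval (47.2% to 53.7%) held 50%. These are shares of counted UMIs, and differences in capture between the genes of a pair were not measured.

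**Figure D4:**
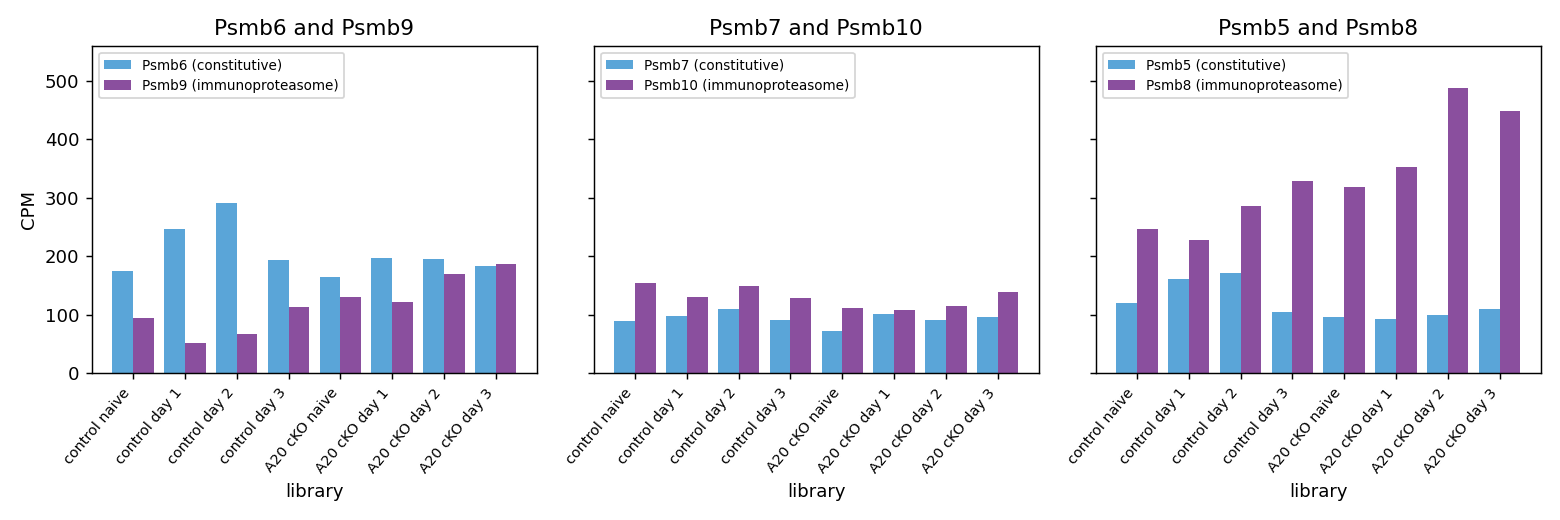
CPM of each constitutive catalytic subunit (blue) and of its immunoproteasome counterpart (purple) in the 8 libraries, with the same linear axis from 0 in all panels. Psmb6 is highest and Psmb9 lowest in control day 1 and day 2, and Psmb8 is above Psmb5 everywhere, most in A20 cKO day 2 (489 against 99.2 CPM).

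Within libraries, cells could be compared with other cells of the same library, and these contrasts were tested over libraries. Cells of the G2/M class were those with UMIs of 3 or more of the 18 chosen G2/M genes after thinning to 2000 UMIs, and 6 libraries held at least 20 of them. Of 34 members 9 were higher and 0 lower at an adjusted p under 0.05 (edgeR quasi-likelihood test with library as a block, adjusted over 9989 genes), against 14.4% of genes higher and 11.1% lower, and the median log2 ratio was 0.19 for members and -0.04 for all genes tested. Psmd1 (0.46 ± 0.12 SE, adjusted p = 0.0087), Psmd14 (0.44 ± 0.11, adjusted p = 0.0077), Psmb7 (0.44 ± 0.09, adjusted p = 0.0018) and Psmc5 (0.43 ± 0.10, adjusted p = 0.0041) led by log2 ratio in edgeR. Psmc3, Psmc4, Psmb6, Psmb2 and Psma4 also passed.

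For Psmb7, G2/M class cells were at 138, 116, 90.3, 156, 110.4 and 149 CPM in control day 2 and day 3 and then in A20 cKO (naive and days 1 to 3), and other cells of these libraries at 103, 88.2, 71.2, 95.7, 81.6 and 85.7 CPM. G2/M class cells were thus higher in 6 of 6 libraries. For Psmd1 they were at 74.9, 89.2, 84.8, 64.2, 105 and 103 CPM against 56.6, 53.9, 65.6, 81.8, 64.3 and 65.6 CPM, which was higher in every library except A20 cKO day 1, where the class held 7 UMIs of the gene. The sum of all members was higher in 6 of 6 libraries, by a mean of 0.24 ± 0.11 (SD, n = 6, exact sign-flip permutation test, two-sided, p = 0.031, the smallest that 6 libraries allow; adjusted over 9 such tests 0.094, which does not pass). Core and regulatory genes were alike in this, at 0.24 ± 0.12 and 0.24 ± 0.09 (SD, n = 6).

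Among related genes in the G2/M class, Psmg2, a chaperone of the alpha ring, was higher by 0.81 (adjusted p = 6.5e-04 in edgeR), Uchl5 by 1.02 (adjusted p = 8.4e-06 in edgeR) and Psme3 by 0.48 (adjusted p = 0.027 in edgeR). Of the immunoproteasome genes Psmb9 (0.39) and Psmb8 (0.28) were higher and Psmb10 (-0.28) lower, all at an adjusted p under 0.05. G2/M class cells were also deeper than others, with a median of 5922.5 against 3751 UMIs in control day 2. With levels from cells thinned to 2000 UMIs 3 members passed, against 832 of 8528 genes higher. In cells of 3000 to 6000 UMIs, which left 4 libraries, 0 passed (5 at an unadjusted p under 0.05 in edgeR), against 832 of 9122 genes higher. The mean of the sum was 0.20 there. Leaving out control day 3 left 4 members, against 1143 of 9972 genes higher. Leaving out A20 cKO day 3 left 6, against 1291 of 10137. With thinned levels, and also with control day 3 left out, the members' share was close to that of all genes. Without library as a block 0 passed, against 851 of 9989 genes higher.

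**Figure D5:**
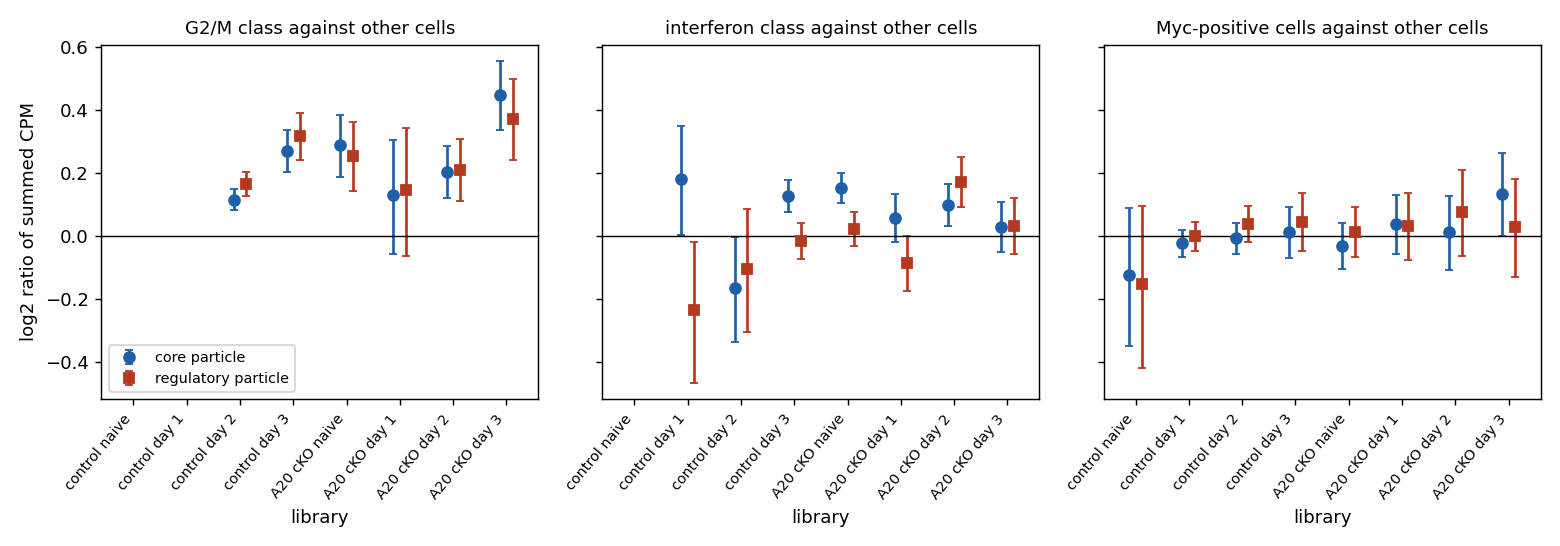
Log2 ratio of summed CPM between cells of a class and other cells of the same library, for core (blue circles) and regulatory genes (red squares), with 95% counting intervals. Libraries with fewer than 20 cells in the class are left out. In the G2/M panel all 6 libraries lie above 0 in both particles, and in the other panels the points lie on both sides of 0.

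Cells with an interferon response (UMIs of at least 3 of 12 interferon-stimulated genes after thinning, 7 libraries) were compared in the same way. The sum was at 0.03 ± 0.09 (SD, n = 7, higher in 5 of 7 libraries, exact sign-flip permutation test, p = 0.47, adjusted over 9 tests 0.82). Of 34 members 2 passed, both alpha genes, Psma4 (0.34 ± 0.08 SE, adjusted p = 0.0043 in edgeR) and Psma5 (0.34 ± 0.09, adjusted p = 0.016 in edgeR), against 6.21% of 9608 genes higher and 3.79% lower. This count was close to the share of all genes and is not read as a result about the members. The log2 ratio was above 0 for 29 of 34 members, with a median of 0.10 for members and -0.03 for all genes tested. With the class called on all UMIs, which deeper cells pass more easily, 7 members passed, against 871 of 9941 genes higher. The sum was then at 0.10 (exact sign-flip permutation test, p = 0.031). Psma4 was at 172, 153, 153, 140.1, 159, 155 and 139.8 CPM in interferon class cells of control (days 1 to 3) and then A20 cKO (naive and days 1 to 3), and at 147, 154, 117, 114, 114, 134 and 121 CPM in the others. It was higher in every library except control day 2, where the class held 18 UMIs of the gene. Leaving out control day 3 or A20 cKO naive left 1 member past the threshold, against 476 of 9309 and 449 of 9315 genes higher. The 3 immunoproteasome genes were all higher in the same contrast, Psmb9 by 0.80, Psmb10 by 0.56 and Psmb8 by 0.44, as were the activator subunits Psme2 (0.67) and Psme1 (0.64). The constitutive partners of these genes did not pass: Psmb6 was at 0.10 ± 0.07, Psmb7 at 0.12 ± 0.09 and Psmb5 at 0.03 ± 0.09 (SE). Interferon class cells made up 22.7% to 55.9% of thinned cells in the linked libraries and 0.62% to 1.59% in the others.

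Cells with at least 1 Myc UMI after thinning, Myc being a transcription factor of growing cells, did not differ detectably from the others in the 8 libraries. The sum was at 0.004 ± 0.07 (SD, n = 8, higher in 5 of 8 libraries, exact sign-flip permutation test, p = 0.87, adjusted over 9 tests 0.98). Of 34 members 0 passed in edgeR and 0 in DESeq2, and 0 had an unadjusted p under 0.05, against 0.0313% of 9591 genes higher and 0.0938% lower. A single Myc UMI marks a cell only loosely. Where the class was called on all UMIs, which deeper cells pass more easily, the sum was at 0.06. The exact sign-flip permutation test then gave an unadjusted p = 0.0078, the smallest that 8 libraries allow, so the result depends on how the class is called.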

How the data were processed

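Per the labels, YFP+ microglia of pooled animals gave 1 10x Genomics 3′ library per group. The authors deposited UMI counts, not normalised, for each gene in each barcode, made with Cell Ranger 2.1.1 on mm10 per the submitters' processing notes. The kit version differs between sources, and for the annotation release and strand setting the sources used here give nothing. Of the members, 10 overlap another gene in the files, 2 of them on the same strand, where reads of both could be mixed. For the others this would need counting without regard to strand. Coordinates are of GRCm38 (GENCODE M21).

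Cells with at least 1000 UMIs, 500 genes and at most 10% mitochondrial UMIs were kept; no doublet caller was run. Sums per library held 1620481 to 15817426 UMIs. Members, lists and classes were chosen with earlier results of these data known. Library ratios were centred on the median gene of at least 100 UMIs in both sums, 0.5 UMIs being added, with exact conditional 95% intervals. One library a group allowed no test. Members were named by rule: 3 highest and lowest, catalytic, widest ranges, and 2 highest and lowest per comparison; others in the text were chosen after their values were seen. Class contrasts summed UMIs per library and class, in edgeR 4.0.16 (glmQLFTest, filterByExpr, TMM, library as a block, since both classes come from the same library) under R 4.3.3, with DESeq2 1.42.0 as an alternative, and exact sign-flip tests in SciPy 1.17.1. The class model was tested on simulated data. Animals are pooled, so p-values measure the spread between these libraries. Some genes of the wider pathway are not reported here.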

Additional observations from a re-analysis of the deposited data

Results flagged for a closer look

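In Myc-positive cells of control naive, the summed members stood apart from the 7 other libraries: the log2 ratio to Myc-negative cells was -0.14 for all members and -0.15 for the regulatory particle, each further from its nearest neighbour than Dixon's 95% limit for 8 values allows. The class held 33 cells there. Chance marks about 1 in 20 such groups. The difference was not followed up.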

How the results depend on the processing

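Between libraries, 62 of 64 values of core minus regulatory stayed within their own counting interval. For the level, 49 of 72 did, 20 moved and 3 turned sign. The interval of core minus regulatory was the wider, for control day 1 -0.21 to -0.05 against 0.46 to 0.54 for the level. These tallies therefore do not show which of them changed less. For members past 1.5-fold, 40 of 48 counts stayed within 1.5 times. In cells of 3000 to 6000 UMIs, chosen after seeing the data, the level was 0.385, 0.437 and 0.0260 in control day 1, 2 and 3 against naive, 0.0397 and -0.0126 (turning sign) in A20 cKO day 2 and 3 against naive, and -0.00832 (turning sign) between genotypes on day 3. Core minus regulatory was then 0.0952 and 0.0202 in A20 cKO day 2 and 3, and the members past 1.5-fold in either direction were 9, 7, 1 (A20 cKO day 1), 0 (A20 cKO day 2), 4 (naive libraries) and 1 (genotypes on day 3). With library totals alone, the level was 0.37, 0.49 and 0.16 in control, 0.126, 0.184 and 0.0586 in A20 cKO, 0.0737 between naive libraries and -0.0266 (turning sign) on day 3. Without S and G2/M class cells, called on all UMIs, it was 0.493 (control day 2), 0.0334 (control day 3), 0.20 and 0.10 (A20 cKO day 2 and 3). The median over members was 0.57 (control day 1), 0.22 (A20 cKO day 2) and 0.15 (genotypes on day 3), and the mean of cell CPM gave 0.0409 (control day 3) and 0.21 (A20 cKO day 2, with 0 members past 1.5-fold). At a mean of at least 50 CPM, 2 members were past 1.5-fold in control day 3, against 24.8% of genes in either direction. The causes were not tested.

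In the class contrasts, the fit with no replicate block ignores that both classes share a library. It called 0 members in the G2/M contrast (7 at an unadjusted p under 0.05 in edgeR), against 851 of 9989 genes higher. In the interferon contrast it called 0 members (1 at an unadjusted p under 0.05 in edgeR), against 176 of 9608 genes higher. Members called in G2/M were 3 with thinned levels, against 832 of 8528 genes higher, and 22 with the class called on all UMIs, against 1508 of 9849. In cells of 3000 to 6000 UMIs they were 0, against 832 of 9122 genes higher. With 1 library left out they were 4 to 13, against 1143 of 9972 to 1511 of 9525 genes higher. The summed level was 0.20 in the 4 libraries of the 3000 to 6000 UMI range (exact sign-flip p = 0.125, the smallest possible). With 1 library left out it was 0.21 to 0.26 (exact sign-flip p = 0.0625, the smallest that 5 allow). In the interferon contrast 1 member passed with DESeq2, against 490 of 9608 genes higher, and 1 with thinned levels, against 436 of 7858. With 1 library left out 1 to 2 passed, against 449 of 9315 to 619 of 9650 genes higher. With the class called on all UMIs 7 passed, against 871 of 9941 genes higher, and the sum was 0.10 (exact sign-flip p = 0.031). The Myc sum was -0.00994 with thinned levels and 0.0558 with the class called on all UMIs (exact p = 0.0078, the smallest that 8 libraries allow). With 1 library left out it was -0.00810 to 0.0243, turning sign without A20 cKO day 1 (-0.000328), day 2 (-0.000875) or day 3 (-0.00810). Depth limits Psma8, with 7 to 70 UMIs a library, and the single members of control naive, the library with the fewest UMIs.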
